A study of Danio rerio with 8 samples.

Results

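The genes described here shut off the light response of photoreceptors: the arrestins *saga*, *sagb*, *arr3a* and *arr3b*, the opsin kinases *grk1a*, *grk1b*, *grk7a* and *grk7b*, and the RGS9 genes *rgs9a* and *rgs9b*. Members were found by their gene name in the annotated table that was deposited with the counts. Of the 10 names sought, 9 were found among the 13325 genes of that table, and *arr3b* was not analysed here. The counts list 33737 gene IDs, some of them without a read. The RNA came from adult zebrafish of the *xops:eGFP* transgenic line (XOPS:eGFP in the labels), in which the rods express eGFP from a rod opsin promoter of *Xenopus*, so a cell counts as a rod only as far as it carried that reporter. Retinas of dark-adapted fish were made into cell suspensions with trypsin and papain, which were sorted by flow cytometry. GFP+ cells (rods) and GFP- cells (all other retinal cells that were sorted) gave 1 library each from the 2 retinas of each of 4 fish, for 8 libraries in all. The fish are called 1, 2, 2_2 and 5_2 after the library titles, and values by fish are given in this order. All fish carried the same transgene, GFP- cells included.

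When light activates an opsin, the opsin switches on transducin and, through it, a phosphodiesterase that lowers cGMP. To end the response, an opsin kinase phosphorylates the active opsin and an arrestin then binds it and blocks further coupling to transducin. Transducin itself is turned off when RGS9, held at the disc membrane by its anchor R9AP and stabilised by a type 5 G protein beta subunit, speeds its GTP hydrolysis. Some arrestins and opsin kinases are known mainly from rods and others mainly from cones, and zebrafish kept pairs of paralogs of several of these genes.

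Counts on genes ranged from 1722055 to 2206479 in GFP+ libraries and from 1865121 to 2514874 in GFP- libraries. Mitochondrial genes took 12.4 to 39.3% of the counts in GFP+ libraries and 25.0 to 66.1% in GFP- libraries. Levels are therefore given as counts per 1000000 counts (CPM) of the library size after TMM scaling, a scaling in edgeR that sets aside such differences in composition. Levels of different genes are not compared, because transcript length was not used. The sort was described with marker lists, which were chosen with earlier results of these data known and so are not an independent check. All 9 rod markers tested were higher in GFP+ cells and all 13 cone markers tested were lower, and the cone markers still summed to between 5096 and 7481 CPM in GFP+ libraries, against 19688 to 39501 CPM in GFP- libraries, with 1 of 14 matched cone markers at 0 in every GFP+ library. The rod markers summed to between 28931 and 54579 CPM in GFP+ libraries and to between 2249 and 11986 CPM in GFP- libraries. None of the marker lists for other cells had a member called higher in GFP+ cells. Called lower there were 4 of 5 tested microglial, 5 of 6 erythrocyte and 3 of 8 bipolar markers. Of 7 tested markers of amacrine, horizontal and ganglion cells, 2 were lower. None of 6 Muller glia markers was called lower, nor of 2 pigment epithelium markers. Muller glia markers summed to 265 to 531 CPM in GFP+ libraries and 503 to 647 CPM in GFP- libraries. Over all genes tested as described below, 3.13% were called higher and 5.68% lower.

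GFP+ and GFP- libraries were compared gene by gene within fish, by the quasi-likelihood F test of edgeR with a term for each fish, over 12564 genes with enough counts, and p-values were adjusted by the Benjamini-Hochberg method to give a false discovery rate (FDR). A gene was called at an FDR under 0.01. All 9 shutoff genes found were tested, and 4 were called higher in GFP+ cells (*saga*, *sagb*, *grk1a* and *rgs9b*), against 3.13% of all genes tested. Another 4 were called lower (*arr3a*, *grk1b*, *grk7a* and *rgs9a*), against 5.68% of all genes tested, and *grk7b* was not called. The median absolute log2 fold change of the 9 genes was 2.87. Over all genes tested the signed median was -0.02. An absolute median over all genes was not computed, so these medians are not compared. The GFP+ and GFP- libraries did not overlap for 8 of the 9, the exception being *grk1b*, against 14.5% of all genes tested. All 9 had the same direction within each of the 4 fish, against 35.5% of all genes tested. In such bulk samples, fewer cells of a type and less RNA per cell cannot be told apart.

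**Figure D1:**
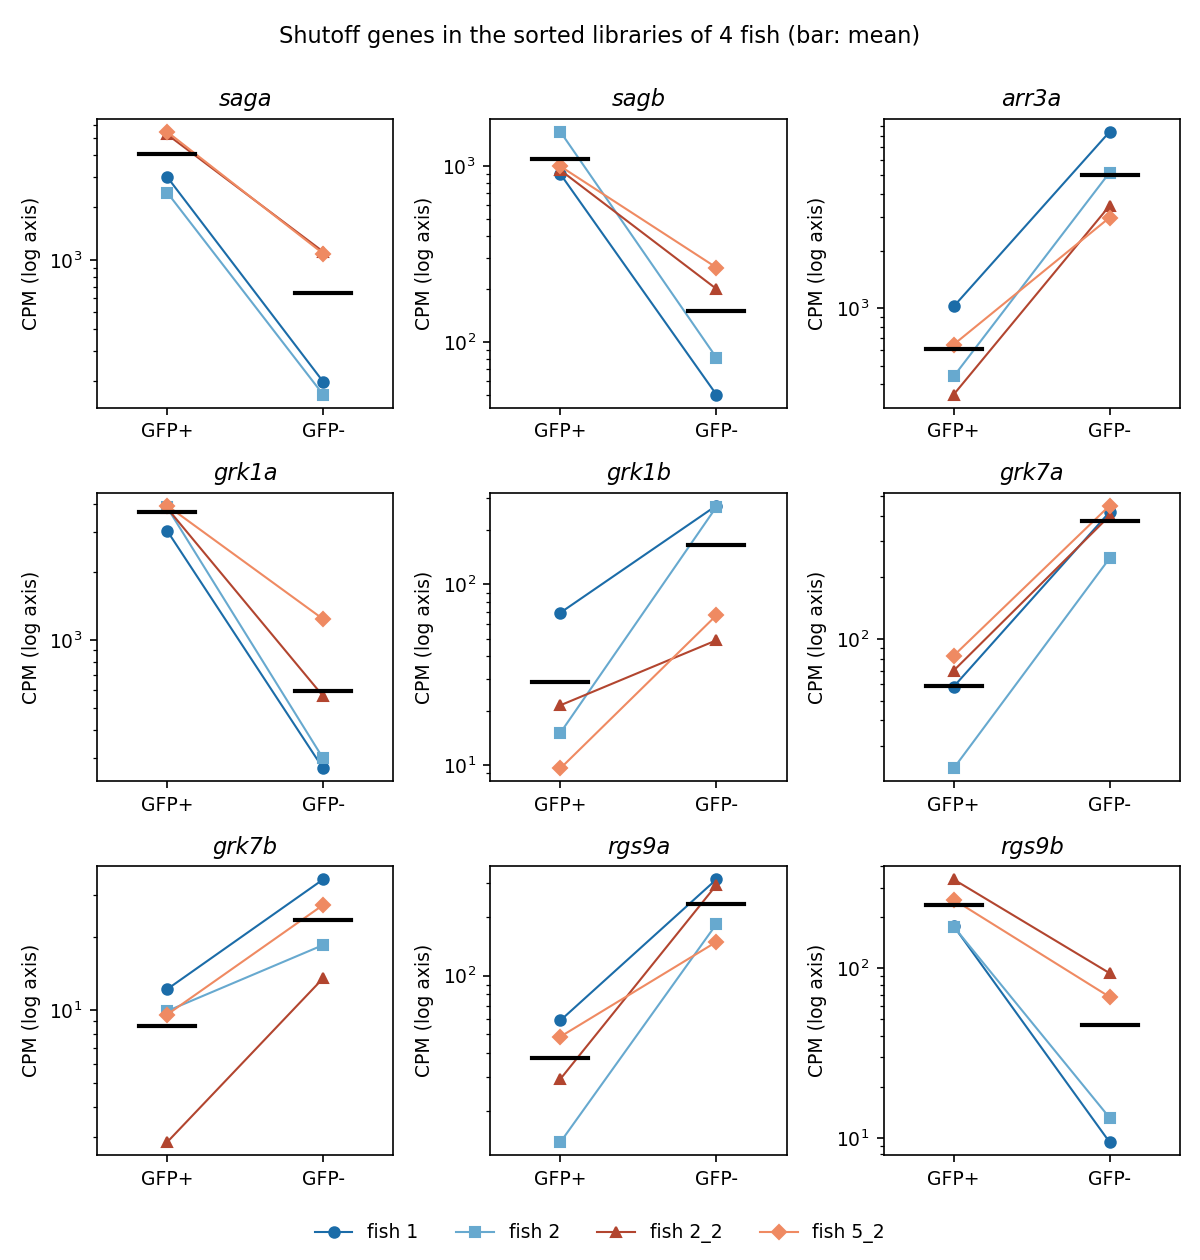
Levels of the 9 shutoff genes in CPM after TMM scaling (log axis, with a different range in each panel) in GFP+ libraries (left) and GFP- libraries (right). Each line joins the libraries of 1 fish and black bars are means over 4 fish. *saga*, *sagb*, *grk1a* and *rgs9b* lie higher in GFP+ cells, and the other 5 genes lie lower there in every fish.

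The arrestins, which cap the phosphorylated opsin, were higher in GFP+ cells for both *saga* and *sagb* and lower there for *arr3a*. *saga* (ENSDARG00000012610, chromosome 2, 5122515 to 5147484 on the minus strand of Zv9) encodes an arrestin of the rod (visual) type. Its level was 2995, 2438, 5260 and 5445 CPM in GFP+ libraries and 199, 168, 1114 and 1087 CPM in GFP- libraries. The lowest GFP+ library thus lay above the highest GFP- library, and in each population fish 2_2 and 5_2 were well above fish 1 and 2. *saga* averaged 4035 ± 1541 CPM in GFP+ libraries and 642 ± 530 CPM in GFP- libraries (SD, n = 4 each), and was 8.45-fold higher in GFP+ cells (log2 fold change 3.08, SE 0.34, edgeR FDR = 1.90e-06).

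*sagb* (ENSDARG00000038378, chromosome 15, 44848055 to 44870331 on the plus strand) is the paralog of *saga*. It was found at 901, 1568, 948 and 998 CPM in GFP+ libraries and at 50.1, 81.3, 200.2 and 265 CPM in GFP- libraries. The GFP+ libraries lay close together apart from that of fish 2, and none reached down to the GFP- range. *sagb* averaged 1104 ± 312 CPM in GFP+ libraries and 149 ± 101 CPM in GFP- libraries (SD, n = 4 each), which was 8.85-fold higher in GFP+ cells (log2 fold change 3.14, SE 0.38, edgeR FDR = 3.84e-06). The fold differences of both rod-type arrestins were thus of similar size.

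*arr3a* (ENSDARG00000056511, chromosome 10, 27435706 to 27446890 on the plus strand) encodes a cone arrestin. Its level was 1022, 439, 352 and 645 CPM in GFP+ libraries, against 8435, 5157, 3452 and 2992 CPM in GFP- libraries. The populations did not overlap, and fish 1 had the highest library in each. *arr3a* averaged 614 ± 298 CPM in GFP+ libraries and 5009 ± 2467 CPM in GFP- libraries (SD, n = 4 each), and was 8.17-fold lower in GFP+ cells (log2 fold change -3.03, SE 0.31, edgeR FDR = 8.13e-07). The beta-arrestins, which act on many receptors outside phototransduction, gave no call. *arrb1* had a log2 fold change of -0.81 (SE 0.89, edgeR FDR = 0.634) and *arrb2b* of 0.01 (SE 0.39, edgeR FDR = 0.989), whereas *arrb2a* had too few counts to be tested.

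The opsin kinases divided in the same 2 directions. *grk1a* (ENSDARG00000058803, chromosome 1, 119767 to 132829 on the plus strand) encodes a kinase of the GRK1 or rhodopsin kinase type. Its level was 3049, 3869, 3843 and 3943 CPM in GFP+ libraries and 269, 298, 563 and 1237 CPM in GFP- libraries. The GFP+ libraries spanned a narrow range, and the GFP- library of fish 5_2 stood above the other GFP- libraries. *grk1a* averaged 3676 ± 420 CPM in GFP+ libraries and 592 ± 450 CPM in GFP- libraries (SD, n = 4 each), and was 7.58-fold higher in GFP+ cells (log2 fold change 2.92, SE 0.34, edgeR FDR = 2.86e-06).

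*grk1b* (ENSDARG00000011184, chromosome 5, 63250685 to 63286407 on the plus strand), its paralog, went the other way. It was found at 69.7, 15.1, 21.4 and 9.60 CPM in GFP+ libraries, against 272, 268, 49.0 and 67.3 CPM in GFP- libraries. This was the only shutoff gene whose populations overlapped, since the GFP+ library of fish 1 lay above the GFP- libraries of fish 2_2 and 5_2. Within each fish, however, the GFP+ library was lower, with log2 ratios of -1.96, -4.13, -1.18 and -2.78. *grk1b* averaged 29.0 ± 27.6 CPM in GFP+ libraries and 164 ± 122 CPM in GFP- libraries (SD, n = 4 each), and was 5.76-fold lower in GFP+ cells (log2 fold change -2.53, SE 0.39, edgeR FDR = 6.88e-05).

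*grk7a* (ENSDARG00000020602, chromosome 2, 16357036 to 16364926 on the plus strand) encodes a cone opsin kinase of the GRK7 type, a kinase that mice and rats lack. Its level was 58.4, 23.3, 70.0 and 82.8 CPM in GFP+ libraries and 417, 248, 399 and 448 CPM in GFP- libraries. The populations were far apart and fish 2 was the lowest in each. *grk7a* averaged 58.6 ± 25.6 CPM in GFP+ libraries and 378 ± 89.1 CPM in GFP- libraries (SD, n = 4 each), and was 6.90-fold lower in GFP+ cells (log2 fold change -2.79, SE 0.28, edgeR FDR = 7.75e-07).

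*grk7b* (ENSDARG00000055534, chromosome 18, 40140779 to 40154057 on the minus strand) was the member with the fewest reads, with 37, 23, 4 and 21 counts in GFP+ libraries and 110, 48, 13 and 42 counts in GFP- libraries. These correspond to 12.2, 9.93, 2.86 and 9.60 CPM in GFP+ libraries and to 34.7, 18.6, 13.6 and 27.2 CPM in GFP- libraries. Each GFP+ library was lower than each GFP- library, but the highest GFP+ library and the lowest GFP- library differed by little. The fitted difference was 2.77-fold lower in GFP+ cells (log2 fold change -1.47, SE 0.50, edgeR FDR = 0.0486), which did not pass the threshold. Counts this low limit what can be said of *grk7b*, although none of them was 0. At this depth a count of 0 would still allow up to 3 counts. That is 1.36 to 1.74 CPM in GFP+ libraries and 1.19 to 1.61 CPM in GFP- libraries, before TMM scaling and covering counting error only.

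Genes that act on or beside the opsin kinases moved in both directions. The recoverins are calcium sensors that hold back opsin kinase in the dark. *rcvrna* was 6.55-fold higher in GFP+ cells (log2 fold change 2.71, SE 0.32, edgeR FDR = 3.06e-06), with 171 to 472 CPM in GFP+ libraries and 21.1 to 55.0 CPM in GFP- libraries. *rcv1*, another recoverin, was 7.04-fold lower (log2 fold change -2.82, SE 0.28, edgeR FDR = 7.75e-07), with 57.9 to 158 CPM in GFP+ libraries and 337 to 871 CPM in GFP- libraries. Of the receptor kinases that do not act mainly on opsins, *adrbk2*, a kinase of the beta-adrenergic receptor type, was 3.54-fold lower (log2 fold change -1.82, SE 0.29, edgeR FDR = 9.92e-05). *grk5l* had a log2 fold change of 0.37 (SE 0.57, edgeR FDR = 0.751), and *grk5* had too few counts to be tested.

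The RGS9 paralogs, which encode the protein that turns transducin off, differed in opposite directions. *rgs9a* (ENSDARG00000037925, chromosome 3, 36365695 to 36388864 on the plus strand) was found at 58.8, 13.8, 29.3 and 48.5 CPM in GFP+ libraries, against 314, 185, 294 and 149.6 CPM in GFP- libraries. The populations did not overlap, and the smallest gap within a fish was that of fish 5_2. *rgs9a* averaged 37.6 ± 20.01 CPM in GFP+ libraries and 236 ± 80.9 CPM in GFP- libraries (SD, n = 4 each), and was 6.70-fold lower in GFP+ cells (log2 fold change -2.74, SE 0.33, edgeR FDR = 4.19e-06).

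*rgs9b* (ENSDARG00000045156, chromosome 12, 19707388 to 19743624 on the plus strand) was found at 178, 177, 335 and 255 CPM in GFP+ libraries and at 9.45, 13.2, 93.8 and 68.0 CPM in GFP- libraries. As for *saga*, fish 2_2 and 5_2 were the highest in each population, and no GFP- library reached the GFP+ range. *rgs9b* averaged 236 ± 75.4 CPM in GFP+ libraries and 46.1 ± 41.6 CPM in GFP- libraries (SD, n = 4 each), and was 7.31-fold higher in GFP+ cells (log2 fold change 2.87, SE 0.37, edgeR FDR = 9.36e-06).

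The partners of RGS9 did not all follow 1 paralog. *rgs9bp*, which encodes the anchor R9AP, was found at 71.0, 110.1, 56.4 and 88.7 CPM in GFP+ libraries and at 3.78, 4.26, 26.1 and 16.8 CPM in GFP- libraries. It was 8.28-fold higher in GFP+ cells (log2 fold change 3.05, SE 0.48, edgeR FDR = 9.72e-05), without overlap between the populations. *gnb5b*, a gene for the beta subunit that pairs with RGS9, averaged 285 ± 95.9 CPM in GFP+ libraries and 296 ± 76.6 CPM in GFP- libraries (SD, n = 4 each). Its log2 fold change was -0.08 (SE 0.26, edgeR FDR = 0.892), and its libraries overlapped. *gnb5a*, also sought for this role, was not matched to a gene ID and was not analysed. Among the other RGS proteins of the same family, *rgs6* was 5.84-fold higher in GFP+ cells (log2 fold change 2.55, SE 0.35, edgeR FDR = 2.05e-05), with 130.3 to 211 CPM in GFP+ libraries and 10.1 to 45.9 CPM in GFP- libraries. *rgs11* had a log2 fold change of -0.98 (SE 0.33, edgeR FDR = 0.0483) and *rgs7* of -0.04 (SE 0.96, edgeR FDR = 0.987), and neither was called.

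The list of genes that act with the shutoff genes held 35 symbols. Those that could be matched, some through an older symbol, gave 23 different gene IDs, and 21 of these were tested. Of the 21, 9 were called higher in GFP+ cells and 6 lower, against 3.13% and 5.68% of all genes tested. The list was chosen with earlier results of these data known, so these counts are a description. Its 8 tested targets of shutoff, 5 called higher and 3 lower, are also in the rod and cone marker lists above. The 21 tested genes of the whole list had a median log2 fold change of 0.01, beside -0.02 for all genes tested. Opposite directions cancel in such a signed median. The phosducins, which bind the beta-gamma subunits of transducin, divided in the way of the *grk1a* and *grk1b* pair and of the RGS9 pair. *pdca* was 6.91-fold higher in GFP+ cells (log2 fold change 2.79, SE 0.31, edgeR FDR = 1.90e-06) and *pdcb* was 5.51-fold lower (log2 fold change -2.46, SE 0.26, edgeR FDR = 1.45e-06). All 8 tested targets of shutoff were called. *rho* (rod opsin), *gnat1* (the alpha subunit of rod transducin), *pde6a*, *pde6b* and *pde6g* (subunits of the rod phosphodiesterase) were higher, with log2 fold changes of 2.55 to 3.21. *gnat2* (the alpha subunit of cone transducin), *pde6c* and *pde6h* (cone phosphodiesterase) were lower, with log2 fold changes of -2.55 to -1.76.

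**Figure D2:**
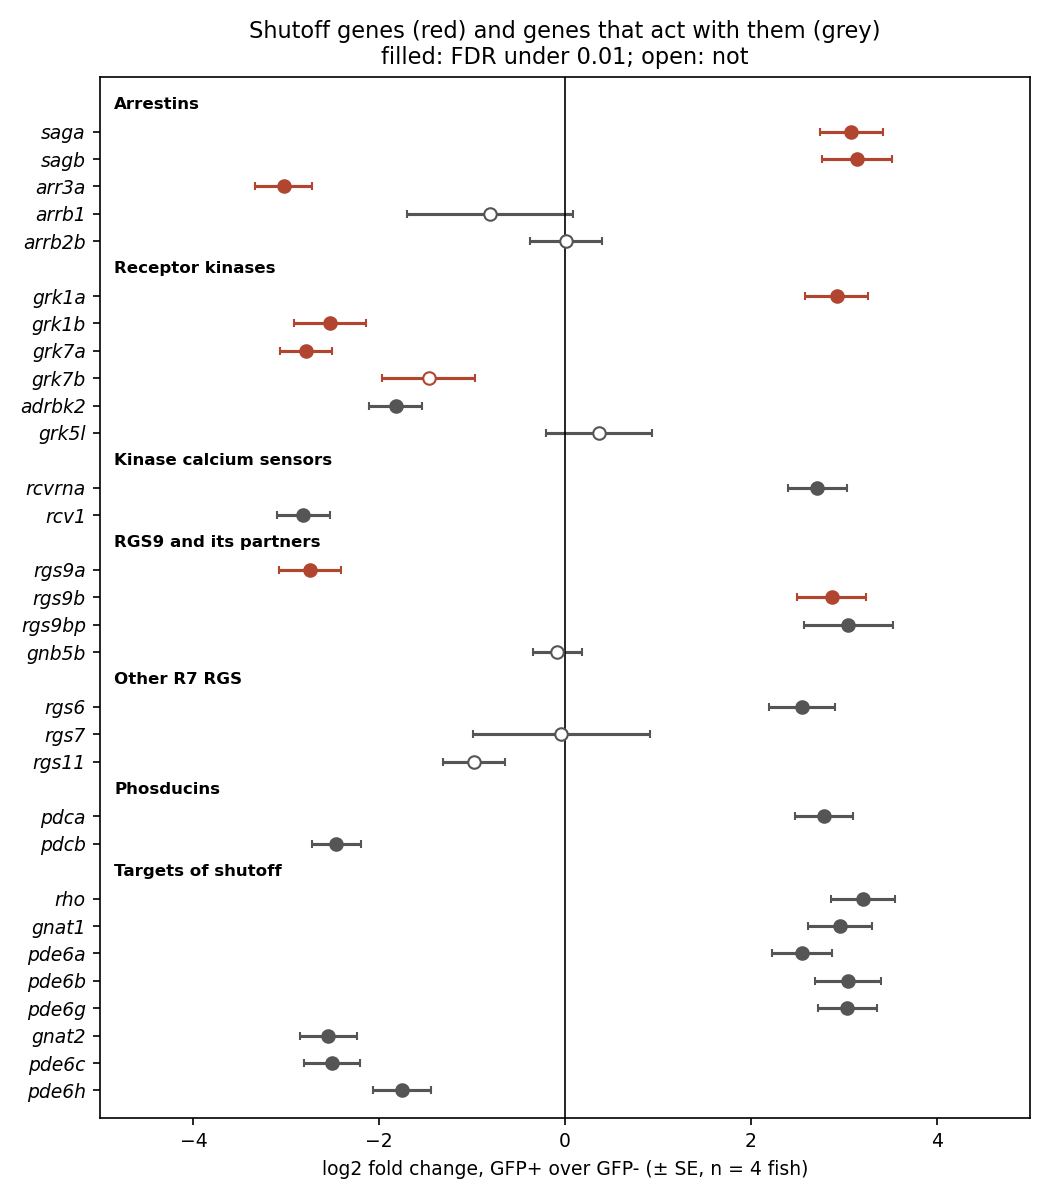
Log2 fold change of GFP+ over GFP- cells (± SE, n = 4 fish) for the shutoff genes (red) and the tested genes that act with them (grey), grouped by role. Filled points passed an FDR of 0.01 and open points did not. The kinases, recoverins, RGS9 genes and phosducins each hold at least 1 gene at a log2 fold change of 2.71 or more and at least 1 at -2.46 or less.

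The paralogs were then compared with each other as the share of the a paralog in the counts of its pair, which does not depend on how a library was scaled. These are shares of counts and not of transcripts. Differences between populations were tested on the log2 ratio of the pair's counts within fish, with an exact two-sided sign-flip permutation test over the 4 fish, whose smallest p is 2 of 16 sign patterns (0.13), and 4 pairs were compared.

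*rgs9a* took 24.8, 7.26, 8.04 and 16.0% of the counts of the RGS9 pair in GFP+ libraries, against 97.1, 93.3, 75.8 and 68.8% in GFP- libraries. The populations were thus far apart, and in GFP- libraries the share was lower in fish 2_2 and 5_2 than in fish 1 and 2. The log2 ratio of *rgs9a* to *rgs9b* was lower in GFP+ cells in 4 of 4 fish, with a mean change of -5.68 (SD 1.73, range -7.45 to -3.52, exact permutation p = 0.13, adjusted p = 0.167).

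*grk1a* took 97.8, 99.6, 99.4 and 99.8% of the counts of the GRK1 pair in GFP+ libraries, against 49.7, 52.7, 92.0 and 94.8% in GFP- libraries. GFP+ libraries were nearly all *grk1a*, whereas the GFP- libraries formed 2 levels, with *grk1a* and *grk1b* almost equal in counts in fish 1 and 2 and *grk1a* far ahead in fish 2_2 and 5_2. The log2 ratio of *grk1a* to *grk1b* was higher in GFP+ cells in 4 of 4 fish, with a mean change of 5.42 (SD 1.72, range 3.95 to 7.82, exact permutation p = 0.13, adjusted p = 0.167).

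The arrestin pair *saga* and *sagb* showed no such turn. *saga* took 76.9, 60.9, 84.7 and 84.5% of the pair's counts in GFP+ libraries and 79.9, 67.4, 84.8 and 80.4% in GFP- libraries. The share followed the fish and not the population, with fish 2 the lowest in each. The mean change of the log2 ratio was -0.06 (SD 0.36, range -0.41 to 0.41, exact permutation p = 0.875), and its sign depended on which fish were included.

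*grk7a* took 82.7, 70.1, 96.1 and 89.6% of the counts of the GRK7 pair in GFP+ libraries, against 92.3, 93.0, 96.7 and 94.3% in GFP- libraries. The a paralog led in both populations, and its share was lower in the GFP+ library of every fish. The log2 ratio of *grk7a* to *grk7b* had a mean change of -1.29 (SD 0.90, range -2.51 to -0.38, exact permutation p = 0.13, adjusted p = 0.167), on the few *grk7b* counts given above. Reads of similar copies may not have been told apart in the counting, and how similar these paralogs are was not examined.

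**Figure D3:**
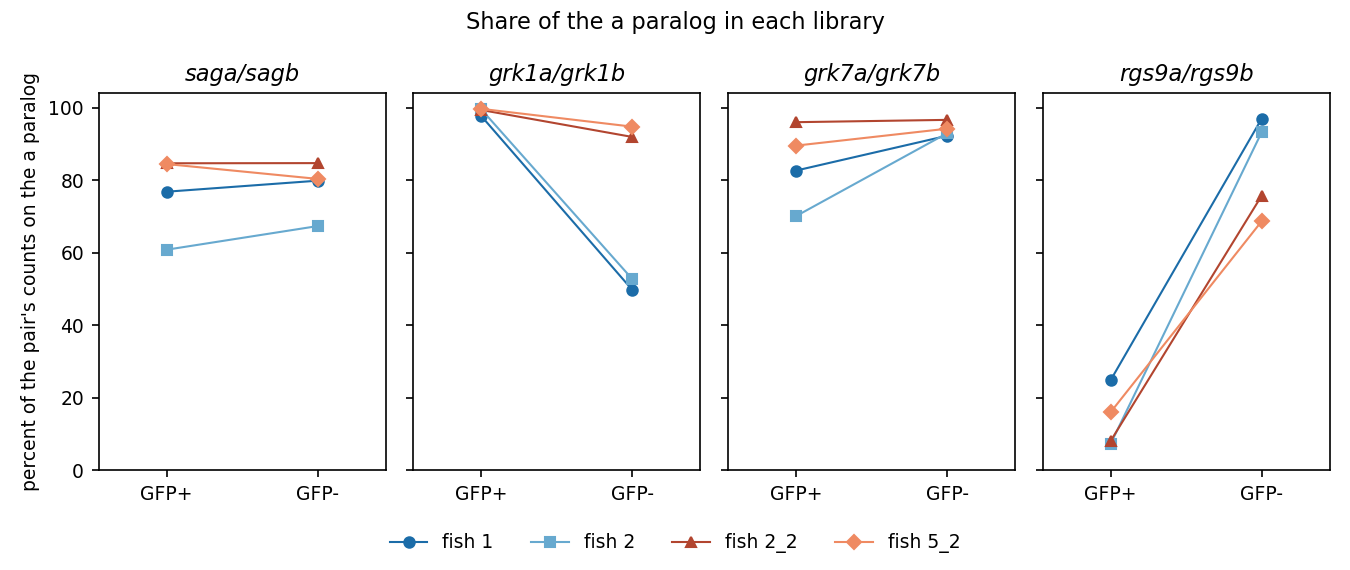
Percent of the counts of each pair that fell on the a paralog, in GFP+ libraries (left) and GFP- libraries (right), with a line for each of the 4 fish. The RGS9 pair turns over between 7.26 to 24.8% in GFP+ libraries and 68.8 to 97.1% in GFP- libraries, while the *saga* and *sagb* pair stays between 60.9 and 84.8%.

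To set the shutoff genes against a rod or a cone gene counted in the same library, the 4 higher in GFP+ cells were divided by the count of *gnat1* and the 5 lower by that of *gnat2*. This assignment follows the direction of each gene alone, and whether the 5 lower genes are cone transcripts was not tested, since GFP- cells include other retinal cells. The exact sign-flip permutation test over the 4 fish has a smallest possible p of 2 of 16 sign patterns (0.13). It could therefore not bring any of the 9 ratios to a p under 0.05, and the lowest adjusted p was 0.5625. Relative to *gnat1*, the log2 difference between GFP+ and GFP- cells was 0.12 for *saga* (SD 0.14), 0.19 for *sagb* (SD 0.44), -0.05 for *grk1a* (SD 0.43) and -0.04 for *rgs9b* (SD 0.48). Each of these 4 differences was smaller than its spread among the 4 fish, but they depended on the rod gene used. Relative to *pde6a* they were 0.53 for *saga* (higher in 4 of 4 fish, exact permutation p = 0.13), 0.59 for *sagb*, 0.36 for *grk1a* and 0.36 for *rgs9b*. Relative to *gnat2*, the log2 difference was -0.25 for *grk7a* (SD 0.20), -0.22 for *rgs9a* (SD 0.73) and 0.03 for *grk1b* (SD 1.07). Relative to *gnat1* or *gnat2*, only *arr3a* and *grk7b* kept 1 direction in all 4 fish. *arr3a* was lower relative to *gnat2* in GFP+ cells, with a mean log2 difference of -0.48 (SD 0.40, range -1.07 to -0.20, exact permutation p = 0.13), and *grk7b* was higher, with a mean log2 difference of 1.05 (SD 0.98, range 0.09 to 2.28, exact permutation p = 0.13). With *pde6c* in place of *gnat2* the means were -0.51 for *arr3a* and 1.02 for *grk7b*, without a single direction in all 4 fish, whereas *grk7a* was then lower in 4 of 4 fish (mean -0.28).

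The size of the difference varied among fish. The 4 genes higher in GFP+ cells had within-fish log2 ratios of 3.50 to 4.27 in fish 1 and 2, but of 1.67 to 2.77 in fish 2_2 and 5_2, whose titles carry a suffix that the sources used here do not explain. The interaction of population and suffix was tested in edgeR over all 12564 genes, with 2 fish on each side. Sex was a variable of the study, but the labels do not give the sex of a fish, so its part in any difference between fish was not tested. The interaction called 0 of the 9 shutoff genes at an FDR under 0.01, against 0.0398% of all genes tested, and 4 of the 9 had an unadjusted p under 0.05, against 6.08% of all genes. For *sagb* the mean log2 ratio was 2.08 in fish with the suffix and 4.22 in the others, a fitted difference of -2.14 (SE 0.41, edgeR FDR = 0.0178). This was called when the low-count filter was a CPM over 1 in 4 libraries (FDR = 0.00131). Leaving out each fish in turn gave FDR values of 0.0072 (without fish 2_2) to 0.0894 (without fish 2), in fits where the lone fish on a side is assumed to vary like the others. *rgs9b* had a mean log2 ratio of 1.87 in fish with the suffix and 3.97 in the others (difference -2.11, SE 0.50, edgeR FDR = 0.0744). *saga* had 2.28 in fish with the suffix and 3.88 in the others (difference -1.60, SE 0.39, edgeR FDR = 0.085), and *grk1a* had 2.22 in fish with the suffix and 3.60 in the others (difference -1.38, SE 0.41, edgeR FDR = 0.258). The 5 genes lower in GFP+ cells had differences of -0.58 to 0.98, with FDR values of 0.932 and above.

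**Figure D4:**
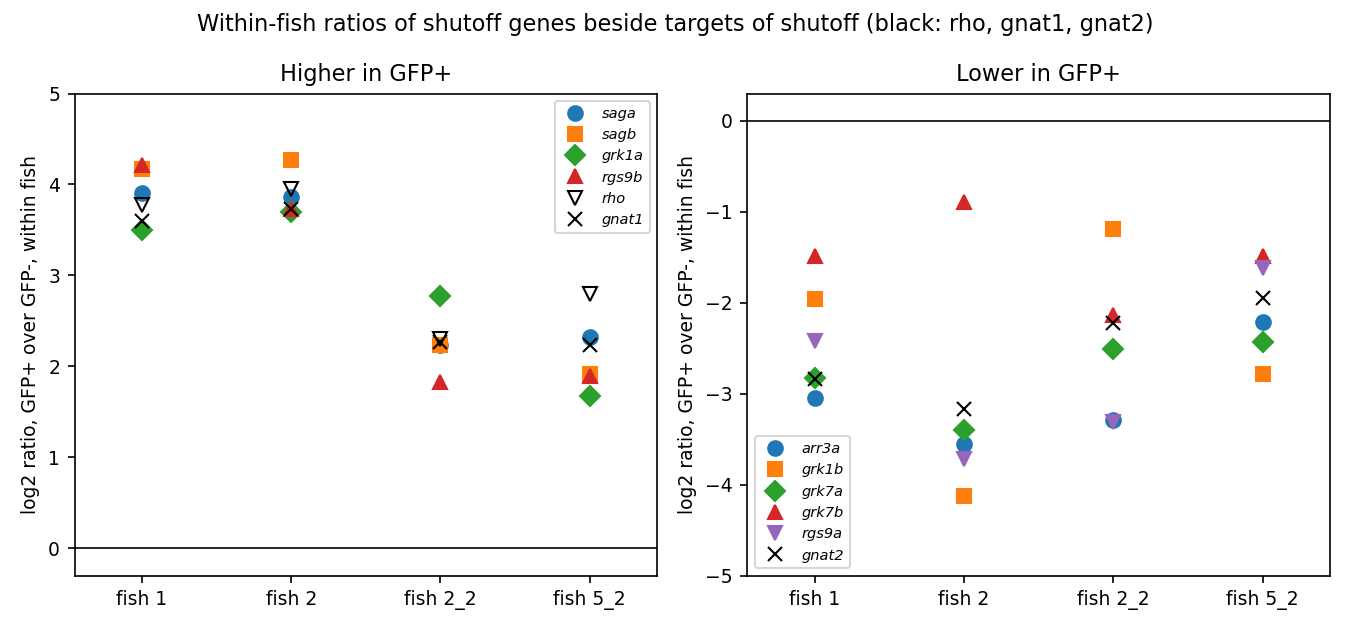
Log2 ratio of GFP+ over GFP- within each of the 4 fish, for the shutoff genes higher in GFP+ cells (left) and lower in GFP+ cells (right). Black symbols are *rho*, *gnat1* and *gnat2* for comparison. On the left all shutoff genes lie at 3.50 or above in fish 1 and 2 and at 2.77 or below in fish 2_2 and 5_2, and *rho* and *gnat1* shift with them.

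The fish were also compared within each population, a comparison chosen after the values were seen. This edgeR fit had groups by population and suffix, with 2 fish on each side, and no term for each fish. The GFP+ and GFP- libraries of a fish were thus treated as independent in it. In GFP- libraries, 2 of the 9 shutoff genes were called higher in fish with the suffix, against 0.167% of all genes tested. *rgs9b* averaged 80.9 CPM in GFP- libraries of fish with the suffix and 11.3 CPM in those without (log2 fold change 2.83, SE 0.42, edgeR FDR = 0.00718). *saga* averaged 1101 CPM in GFP- libraries of fish with the suffix and 184 CPM in those without (log2 fold change 2.58, SE 0.39, edgeR FDR = 0.00762). *sagb*, at 232 CPM with the suffix and 65.7 CPM without (log2 fold change 1.83, edgeR FDR = 0.0714), and *grk1a*, at 899.8 CPM with and 284 CPM without (log2 fold change 1.67, edgeR FDR = 0.117), did not pass. Rod markers moved with these values: in GFP- libraries all 9 together summed to 11986 and 8927 CPM in fish 2_2 and 5_2, and to 2249 and 3369 CPM in fish 1 and 2, and *rho* averaged 3197 CPM with the suffix and 853 CPM without (edgeR FDR = 0.0634). Mitochondrial genes took 66.1 and 58.7% of the counts of these GFP- libraries in fish 2_2 and 5_2, and 25.0 and 26.9% in fish 1 and 2. The part of either in the differences between fish was not tested. *grk1b* ran the other way, with 58.2 CPM in GFP- libraries of fish with the suffix and 269.9 CPM in those without (log2 fold change -2.21, SE 0.60, edgeR FDR = 0.134), which was not called. In GFP+ libraries none of the 9 was called, against 0.0796% of all genes tested. An unadjusted p under 0.05 in edgeR was found for 2 of the 9 (*saga* and *grk1b*), against 13.5% of all genes tested.

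The patterns over the 8 libraries were compared by the Pearson correlation of log2 CPM. Outside the shutoff genes, those most like *saga* were *hcn3*, a channel of the hyperpolarization-activated type (r = 0.998), *si:ch73-165l19.1* (r = 0.991) and *mpp6a* (r = 0.986). For *arr3a* they were *gnb3b*, a G protein beta subunit known from cones (r = 0.992), *rcv1* (r = 0.986) and *hexb*, a lysosomal enzyme (r = 0.986). For *rgs9a* they were *spock3* (r = 0.979), *mllt11* (r = 0.979) and *otof*, which encodes otoferlin (r = 0.976). These libraries share population, fish and depth, so the correlations are given as a description.

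Some of the calls rest on the pairing by fish. *sagb* (edgeR FDR = 0.00742), *arr3a* (FDR = 0.00722), *grk7a* (FDR = 0.00414) and *rgs9a* (FDR = 0.00624) were also called without it. Without the fish as a block, *saga* (edgeR FDR = 0.0337), *grk1a* (FDR = 0.0131), *grk1b* (FDR = 0.0473) and *rgs9b* (FDR = 0.0416) no longer passed the threshold, although each kept its direction. In the other 12 alternatives, which include leaving out each fish in turn, the calls of all 9 genes were kept.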

How the data were processed

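RNA from GFP+ and GFP- cells of 4 fish was amplified (NuGEN Ovation) before MiSeq sequencing. Sickle (trimming), FLASH (overlap of read pairs), BWA (alignment to Zv9) and SAMtools were used by the authors, who made the deposited counts per Ensembl gene with HTSeq-count, unnormalized. Versions, and whether counting used strand, are not given in the sources used here. HTSeq's own counters for reads on no single gene (40.5 to 55.3% of GFP+ and 34.4 to 41.0% of GFP- totals) did not enter library sizes or tests. The authors also deposited an edgeR table with fold changes, p-values and FDR, which were not used, and with a normalized signal per library. From that signal whole reads came back for 100% of values (tolerance 0.001), and 100% equalled the counts. Tested in the same way, these recovered reads gave 387 genes higher and 685 genes lower. No sample column was left unmapped. Coordinates are those of that table, which names 13325 genes. Gene names are also from it, or from a reference list of gene names for gene IDs that it lacks.

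Tests used edgeR 4.0.16 under R 4.3.3 (TMM, filterByExpr with the design, trended dispersion, quasi-likelihood F test, fish as a block, Benjamini-Hochberg over all genes tested, FDR under 0.01 after the study's threshold). The comparison of fish within a population had no fish block. DESeq2 1.42.0 was an alternative. Python 3.11.15 with numpy 2.4.6, pandas 2.3.3 and matplotlib 3.10.9 served for tables and plots. The SE was derived from the log2 fold change and the F statistic. Ratios of counts used a pseudocount of 0.5, and log2 CPM for correlations a prior count of 2. The test was checked on simulated data.

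Libraries were paired by fish because each fish gave both populations. Deviations from the population means correlated at 0.323, 0.292, 0.333 and 0.214 between the GFP+ and GFP- libraries of a fish. The highest correlation of a GFP+ library with a GFP- library of another fish was 0.205. Taking deviations from means of 4 libraries lowers the correlations between fish, so these values are a description. Members, pathway and marker lists were chosen with earlier results of these data known. The genes named are all members, called genes of the pathway list with *rho*, *gnat1*, *gnat2*, *gnb5b* and *rgs9bp*, the 3 genes most correlated with *saga*, *arr3a* and *rgs9a*, and further pathway genes to account for each role. Alternatives covered the block, the test, the tool, the scaling, the low-count filter, mitochondrial genes, pseudocounts, reference genes and each fish left out. Those on recovered reads, on the suffix within a population and on *grk1b* against *grk7a* were chosen after seeing the data. No sequences are printed, and the planned search of promoters was not run.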

Additional observations from a re-analysis of the deposited data

Results flagged for a closer look

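In each of the 18 sets of 4 libraries (9 shutoff genes in GFP+ and in GFP- cells), the highest and the lowest library were compared with the others by Dixon's criterion, which chance alone meets in about 1 in 20 such sets. It picked out 2 libraries. *sagb* was highest in the GFP+ library of fish 2, at 1568 CPM, against 901 to 998 CPM in the GFP+ libraries of the other fish. *grk1a* was lowest in the GFP+ library of fish 1, at 3049 CPM, against 3843 to 3943 CPM in the GFP+ libraries of the other fish. Both values lay far above every GFP- library of the same gene.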

How the results depend on the processing

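Under all 13 alternatives the 9 shutoff genes kept the direction of their log2 fold change. With no replicate block, that is without the pairing by fish, 1 shutoff gene was called higher (*sagb*) in place of 4 and 3 were called lower in place of 4, while over all genes 45 were called higher and 142 lower, in place of 393 and 714. The likelihood ratio test called 571 higher and 1112 lower. Without scaling factors 568 were called higher and 372 lower, and the median of all genes moved to 0.32 from -0.02 on the log2 scale. Leaving out each fish in turn gave 180 to 352 genes called higher and 329 to 569 lower, with 4 and 4 shutoff genes each time.

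The mean change of the *saga* to *sagb* log2 ratio ranged from -0.22 to 0.051 (0.00026 without fish 1, 0.051 without fish 2) when a fish was left out, beside -0.06. Ratios near 0 also turned sign with the fish left out, from -0.23 to 0.12 for *grk1a* to *gnat1*, -0.26 to 0.091 for *rgs9b* to *gnat1* (0.056 without fish 5_2), -0.30 to 0.36 for *grk1b* to *gnat2* (-0.25 without fish 1) and -0.44 to 0.068 for *rgs9a* to *gnat2*. With *pde6a* in place of *gnat1* the ratios of *grk1a* and *rgs9b* became 0.36 and 0.36, and those of *saga* and *sagb* 0.53 and 0.59 in place of 0.12 and 0.19. For the interaction with the suffix, a CPM over 1 in 4 libraries as the filter called 23 genes in place of 5, among them 1 shutoff gene (*sagb*). Leaving out a fish gave 3 to 49 genes (10 without fish 1, 3 without fish 2, 11 without fish 2_2, 49 without fish 5_2) and 0 to 1 shutoff genes (1 without fish 2_2). Its sign turned for *grk1b* (-0.016 without fish 2, range to 2.15), *rgs9a* (-0.35 without fish 5_2, -0.0062 without fish 2, range to 1.40) and *arr3a* (-0.030 without fish 5_2, range to 1.10). The cause was not tested in any of these cases. Depth limits *grk7b* most.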

Other observations

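A comparison chosen after the values were seen set *grk1b* against *grk7a*, kinases that were both lower in GFP+ cells. *grk1b* took 54.4, 39.3, 23.4 and 10.4% of their summed counts in GFP+ libraries of fish 1, 2, 2_2 and 5_2, and 39.5, 51.9, 10.9 and 13.1% in GFP- libraries. In each population the share was higher in fish 1 and 2 than in fish 2_2 and 5_2, and the populations overlapped. The long-wavelength cone opsin *opn1lw1*, also singled out after its values were seen, was at 302, 133, 12.1 and 21.0 CPM in GFP+ libraries and at 1491, 1765, 54.2 and 175 CPM in GFP- libraries in the same order of fish. The neighbouring opsin gene *opn1lw2* was at 195, 171, 254 and 67.7 CPM in GFP+ libraries and at 1455, 1835, 1074 and 432 CPM in GFP- libraries. In GFP- libraries *grk1b* and *opn1lw1* were thus each lower in fish 2_2 and 5_2 than in fish 1 and 2, while *grk7a*, at 417, 248, 399 and 448 CPM, showed no such division. In GFP+ libraries *opn1lw1* divided in this way too, but *grk1b* did not, at 15.1 CPM in fish 2 and 21.4 CPM in fish 2_2. This division was not particular to *opn1lw1*: in GFP- libraries 7 of 14 cone markers (*opn1sw1*, *opn1mw2*, *opn1mw3*, *opn1mw4*, *opn1lw1*, *opn1lw2* and *pde6h*) were lower in both fish with the suffix than in both others, and 3 (*cnga3a*, *cnga3b* and *cngb3*) were higher. In GFP+ libraries 4 of 14 were lower and 3 higher. The share of all genes that divide in this way was not computed, so these counts are a description only. A relation among these genes was not tested.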
